A study of Cercocebus atys with 16 samples.

Results

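The transcripts described here are those of the MHC class II genes, of CD74 and of the class II transactivator CIITA, measured in double-negative T cells of 4 sooty mangabeys. They form 12 genes by name and were read by 29 of the 43603 distinct probes of the array. Members were chosen by the gene name that the array files give. The names of 24 probes began with MAMU-D and those of 2 with MAMU_D, 1 probe was named CD74, and 2 probes named otherwise were described as the class II transactivator and are called CIITA here. No probe carried the name Mamu-DRB1, and the DR beta chains were read by probes named MAMU-DRB and MAMU-DRB5. The set was proposed with earlier results of these same arrays known, so the counts and adjusted p-values below describe the members and are not independent evidence about them.

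All 4 animals were infected with SIV. Within each animal, cells treated for 4 h with antibodies to CD3 (3 mg/ml, as the labels state it) and to CD28 (1 mg/ml) were set against unstimulated cells. The labels gave the CD4 status as low in FBR and FTV and as normal in FNV and FKN. The cells were CD3+CD4-CD8- blood T cells, obtained by depleting CD4, CD8 and CD16 cells with magnetic beads and then selecting CD3 cells, used at a stated purity above 98% and rested overnight. Each animal had 4 arrays with 2 colours, of which 2 paired the conditions in opposite dye orientations and 2 carried the same RNA in both channels. The array was designed on the rhesus macaque, and no mangabey sequence was compared with the probes, so a low signal may also reflect a mismatch between a probe and the allele of an animal.

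MHC class II molecules are pairs of an alpha and a beta chain that present peptides from the endosomes to CD4 T cells. The classical pairs are DR, DP and DQ. CD74, the invariant chain, occupies the peptide groove during assembly, DM then exchanges its remnant for peptides, and DO restrains DM. CIITA is the coactivator on which transcription of these genes depends, and interferon gamma is a main inducer of it. B cells, monocytes and dendritic cells carry class II molecules at rest, and T cells of humans and many other mammals, mice excepted, acquire them after activation.

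The probes were 60 bases long, and their sequences are shown for the genes on which the results turn. Both MAMU_DMA probes, which had the largest mean responses among the members, lay on chromosome 4 of the rheMac2 assembly, on the minus strand at chr4:32655525-32655584 and chr4:32656723-32656782.
MAMU_DMA A_01_P015580: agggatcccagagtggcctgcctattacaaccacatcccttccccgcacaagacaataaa
MAMU_DMA A_01_P1743881: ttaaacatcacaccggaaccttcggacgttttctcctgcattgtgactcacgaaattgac
The MAMU-DPB gene had 5 probes. The first of the pair below lay at chr4:32801070-32801129 on the plus strand, and the files give no position for the other. The pair overlapped by 44 bases, of which 3 differed, and the capitals mark these.
MAMU-DPB A_01_P1684861: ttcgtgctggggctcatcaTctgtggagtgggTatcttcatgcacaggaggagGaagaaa
MAMU-DPB A_01_P1696604: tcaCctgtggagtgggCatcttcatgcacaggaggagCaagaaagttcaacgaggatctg
The probes named MAMU-DRB and MAMU-DRB5 below overlapped by 55 bases with 3 differences, again in capitals, and the second lay at chr4:32151751-32151810 on the minus strand.
MAMU-DRB A_01_P1743866: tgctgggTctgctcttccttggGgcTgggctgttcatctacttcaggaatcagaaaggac
MAMU-DRB5 A_01_P1695601: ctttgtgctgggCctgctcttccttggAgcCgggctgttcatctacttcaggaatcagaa
The 2 tested MAMU-DPA probes, which were lowest in FTV, overlapped by 54 bases with 5 differences in capitals, and the first lay at chr4:32785375-32785434 on the minus strand.
MAMU-DPA A_01_P1671206: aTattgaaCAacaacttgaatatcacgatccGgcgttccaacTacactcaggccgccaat
MAMU-DPA A_01_P1698896: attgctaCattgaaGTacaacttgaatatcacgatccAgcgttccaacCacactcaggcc
The MAMU-DQB1 probes did not overlap over 30 bases or more, and they are shown because their levels in FBR are set side by side further on.
MAMU-DQB1 A_01_P1671216: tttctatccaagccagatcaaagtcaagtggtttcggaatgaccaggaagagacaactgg
MAMU-DQB1 A_01_P1684831: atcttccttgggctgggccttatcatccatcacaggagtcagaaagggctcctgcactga
The CD74 probe lay at chr6:146880060-146880119 on the minus strand.
CD74 A_01_P1753501: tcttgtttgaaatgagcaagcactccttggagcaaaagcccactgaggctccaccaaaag
Among the 29 members, 8 pairs aligned over at least 30 bases and 11 probes had such a partner, so several probes of a gene can bind the same transcript. No 2 member probes were identical. Probes of one gene are therefore described apart and are not replicates.

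The share of spots well above background in a channel was 57% to 65% over the 12 arrays of the other animals and 33.3% to 64.8% over the 4 arrays of FNV. The lowest shares, 33.3% and 37.6%, were those of FNV's self-self array of stimulated RNA. Both its channels enter the stimulated levels of FNV, whereas the responses on the ratio arrays do not use them. The arrays of FNV also formed a scan batch of their own. Of the 29 members, 27 passed the filter on dim probes, 1 MAMU-DOA probe (A_01_P1743896) was well above background in no channel, and 1 MAMU-DPA probe (A_01_P1775316) in 2 of the 16 unstimulated channels. On the self-self arrays, where both channels held the same RNA, the median absolute log2 ratio of the 27 tested members was 0.05 and the 95th percentile 0.20. The small number of animals and arrays also limits the precision, and p-values measure the spread between these 4 animals.

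The first comparison set stimulated against unstimulated cells. MAMU_DMA and MAMU-DPB fell in all 4 animals, on each of their tested probes, and the probes of the other classical chains, of CD74 and of CIITA did not pass. Of the 27 tested members, 8 fell and 0 rose at an adjusted p under 0.05 in limma, where 20.4% of all 27493 tested probes fell and 19.9% rose, 40.3% in all. The median response of the members was -0.29 on the log2 scale, against -0.01 over all tested probes. A negative value means less signal in stimulated cells, and in RNA from a mixture fewer cells of a type and less RNA per cell cannot be told apart.

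**Figure D1:**
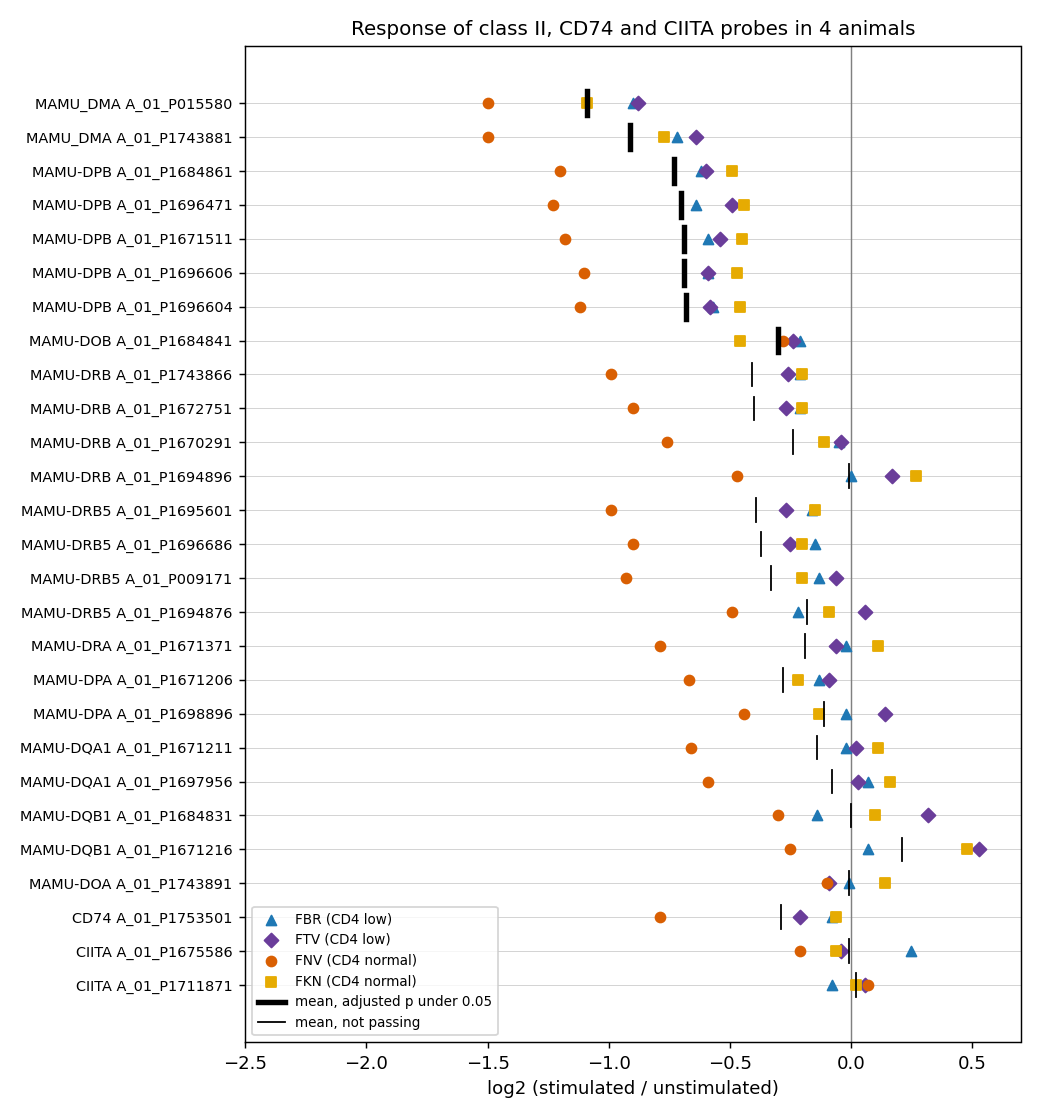
The plot gives the log2 ratio of stimulated over unstimulated signal for the 27 tested member probes, 1 point per animal and a bar at the mean of the 4 animals, thick where the adjusted p was under 0.05. Both MAMU_DMA probes, all 5 MAMU-DPB probes and the MAMU-DOB probe have all 4 points below 0 and a thick bar, and FNV lies farthest to the left for 25 of the 27 probes.

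Among the members that act in peptide loading, MAMU_DMA, the alpha chain of the peptide exchanger DM, had the largest mean responses. The stimulated level of A_01_P015580 was 9.78 in FBR, 9.72 in FTV, 11.76 in FNV and 10.09 in FKN (log2 intensity), against unstimulated levels of 10.70, 10.62, 13.32 and 11.21 in the same animals. Each animal was lower after stimulation, and the conditions overlapped because FNV was far above the others in both. The log2 response was -0.90 in FBR, -0.88 in FTV, -1.50 in FNV and -1.09 in FKN, a mean of -1.09 ± 0.29 (SD, n = 4; 2.13-fold lower; limma adjusted p = 0.00209). The second probe, A_01_P1743881, gave -0.72, -0.64, -1.50 and -0.77 in the same order of animals, with a mean of -0.91 ± 0.40 (1.88-fold lower; limma adjusted p = 0.00929). It also fell in every animal, again most in FNV. Its call was lost under median centring (limma adjusted p = 0.0721), and both MAMU_DMA calls on the self-self arrays without the animal as a block.

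MAMU-DOB, the beta chain of the DM inhibitor DO, had a small mean fall that depended on the dye orientation in FBR, FTV and FNV. Its probe A_01_P1684841, at chr4:32503765-32503824, gave -0.21 in FBR, -0.24 in FTV, -0.28 in FNV and -0.46 in FKN, a mean of -0.30 ± 0.11 (SD, n = 4; 1.23-fold lower; limma adjusted p = 0.0181). With stimulated RNA in Cy3 the ratio was -0.39 in FBR, -0.44 in FTV and -0.53 in FNV. With stimulated RNA in Cy5 it was -0.04, -0.04 and -0.03. Only FKN gave similar values in both, -0.47 and -0.45. MAMU-DOB was the only passing member in which FKN and not FNV moved most. Its stimulated signal was well above background in 9 of 16 channels, against 16 of 16 unstimulated channels. Its call was lost when FBR, FTV or FKN was left out, with adjusted p of 0.0592, 0.0534 and 0.0792. The size depended on the processing, since the scanner software's own ratios gave -1.18. MAMU-DOA, the alpha chain of DO, had a mean of -0.01 ± 0.11 on its tested probe (limma adjusted p = 0.873), with FKN at 0.14 and the other animals between -0.10 and -0.01.

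MAMU-DPB, the beta chain of DP, fell on all 5 probes. Stimulated levels of A_01_P1684861 were 12.28 in FBR, 11.65 in FTV, 14.35 in FNV and 12.90 in FKN, against unstimulated levels of 12.97, 12.35, 15.46 and 13.46. Every animal was lower after stimulation. In both conditions FNV lay farther above each other animal than any animal changed, whereas FKN and FBR lay closer together than FBR changed. The responses of this probe were -0.62 in FBR, -0.60 in FTV, -1.20 in FNV and -0.49 in FKN, a mean of -0.73 ± 0.32 (SD, n = 4; 1.65-fold lower; limma adjusted p = 0.0101). The other 4 probes had means between -0.70 and -0.68, with adjusted p between 0.00862 and 0.0163. By animal, the 5 probes lay between -0.64 and -0.57 in FBR, -0.60 and -0.49 in FTV, -1.23 and -1.10 in FNV, and -0.49 and -0.44 in FKN. FNV fell most on each probe. Without it the 5 means lay between -0.57 and -0.52 and all 5 probes still passed. Leaving out FBR ended the call of A_01_P1696471 (adjusted p = 0.0652) and of A_01_P1671511 (0.0524). Under median centring in place of loess none of the 5 passed, with means between -0.63 and -0.59 and limma adjusted p between 0.183 and 0.204, and none passed on the self-self arrays without the animal as a block.

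The alpha chain of DP did not pass. MAMU-DPA probe A_01_P1671206 gave -0.13 in FBR, -0.09 in FTV, -0.67 in FNV and -0.22 in FKN, a mean of -0.28 ± 0.27 (SD, n = 4; limma adjusted p = 0.103). The values were below 0 in all 4 animals, and only that of FNV exceeded 0.5. Probe A_01_P1698896 had a mean of -0.11 ± 0.24 (adjusted p = 0.425), with FTV at 0.14.

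The DR probes gave lower values after stimulation in most animals and none of the 9 passed. These were 4 probes named MAMU-DRB and 4 named MAMU-DRB5, both names for beta chains, and 1 probe for the alpha chain MAMU-DRA. For MAMU-DRB probe A_01_P1743866, stimulated levels were 12.30 in FBR, 12.54 in FTV, 14.35 in FNV and 13.34 in FKN, against unstimulated levels of 12.56, 12.91, 15.30 and 13.61. FNV was the highest in both conditions, by more than 1 log2 unit over FBR and FTV, and its change was the largest. The responses were -0.21 in FBR, -0.26 in FTV, -0.99 in FNV and -0.20 in FKN, a mean of -0.41 ± 0.39 (SD, n = 4; limma adjusted p = 0.0839). Over the 8 beta chain probes the means ran from -0.41 to -0.01 and the adjusted p from 0.0675 to 0.975.

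The DR beta probes included 4 that passed in the animals of the later scan batch. Without FNV, A_01_P1743866 had a mean of -0.22 (limma adjusted p = 0.0257), A_01_P1672751 of -0.23 (0.0231), A_01_P1696686 of -0.20 (0.0379) and A_01_P1695601 of -0.19 (0.0465). With FNV the means of these probes lay between -0.41 and -0.37 and none passed. The falls without FNV were small and differed by dye orientation. In FKN the 4 probes lay between -0.09 and -0.02 with stimulated RNA in Cy3 and between -0.37 and -0.26 in Cy5. In FTV the ranges were -0.20 to -0.11 and -0.40 to -0.34, and in FBR -0.17 to -0.12 and -0.25 to -0.16. Each of the 4 also overlapped another of them by at least 30 bases, so they are not independent. MAMU-DRA probe A_01_P1671371 gave -0.02 in FBR, -0.06 in FTV, -0.79 in FNV and 0.11 in FKN, a mean of -0.19 ± 0.41 (adjusted p = 0.38), and without FNV the mean was 0.01.

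The name of 2 of these probes went against other annotation. A_01_P1694896, named MAMU-DRB, was described in the files as a DQA transcript, and A_01_P1694876, named MAMU-DRB5, was placed at chr4:32396692-32396750, next to the position of a MAMU-DQB1 probe at chr4:32393169-32393215. The response of the first was 0.00 in FBR, 0.17 in FTV, -0.47 in FNV and 0.27 in FKN, and that of the second -0.22, 0.06, -0.49 and -0.09.

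The DQ probes did not pass. MAMU-DQA1, the alpha chain, gave means of -0.14 ± 0.35 on A_01_P1671211 and -0.08 ± 0.34 on A_01_P1697956 (SD, n = 4; limma adjusted p = 0.465 and 0.646), and these probes overlap by 57 bases with 1 difference. FNV stood at -0.66 and -0.59 on them and the other 3 animals between -0.02 and 0.16. MAMU-DQB1, the beta chain, had the only positive mean above 0.1 among the members. Its probe A_01_P1671216 gave 0.07 in FBR, 0.53 in FTV, -0.25 in FNV and 0.48 in FKN, a mean of 0.21 ± 0.37 (adjusted p = 0.3). FNV went against the other animals here, and without it the mean was 0.36 and passed (limma adjusted p = 0.0483). The other MAMU-DQB1 probe, A_01_P1684831, had a mean of 0.00 ± 0.27 (adjusted p = 0.983).

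CD74 and CIITA did not pass either. Stimulated levels of CD74 were 10.54 in FBR, 10.81 in FTV, 10.58 in FNV and 10.82 in FKN, against unstimulated levels of 10.66, 11.11, 11.43 and 10.99. Its stimulated levels lay close to each other, and FNV was the highest in unstimulated cells only. The responses were -0.08 in FBR, -0.21 in FTV, -0.79 in FNV and -0.06 in FKN. The mean was -0.29 ± 0.34 (SD, n = 4, limma adjusted p = 0.152), and -0.12 without FNV. The sign depended on the dye orientation in FTV and FKN, with 0.06 and 0.07 for stimulated RNA in Cy3 and -0.48 and -0.20 in Cy5. FBR gave -0.08 in both orientations, and FNV -0.82 and -0.76. CIITA probe A_01_P1675586, at chr20:10993951-10994010, gave 0.25 in FBR, -0.04 in FTV, -0.21 in FNV and -0.06 in FKN, a mean of -0.01 ± 0.19 (adjusted p = 0.901). The second CIITA probe, A_01_P1711871, was well above background in 6 of 16 stimulated and 11 of 16 unstimulated channels and had a mean of 0.02 ± 0.07 (adjusted p = 0.818).

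Over the members as a whole, 16 of 27 were lower in all 4 animals, where 30.1% of all tested probes were. FNV had the lowest response of the 4 animals for 25 of 27 members, where it had the lowest for 39.5% of all tested probes. The median response of the 27 members was -0.14 in FBR, -0.09 in FTV, -0.79 in FNV and -0.15 in FKN, and over all tested probes it was 0.00, 0.00, -0.01 and 0.00. The median SD between animals was 0.33 for the members and 0.16 for all tested probes. Without FNV the median of the members was -0.13 and of all tested probes 0.00, 12 members passed as lower and 1 as higher, and 25.3% of all tested probes then passed as lower and 25.9% as higher. Every one of the 8 members that fell with 4 animals also passed without FNV. FNV alone made up its scan batch, so a fit with the batch as a term took its error from FBR, FTV and FKN only. The mean it tested still held FNV, so its calls are not counted here. When the self-self arrays were set against each other with the animal as a replicate block, 11 members passed as lower and 0 as higher, where 15.8% and 13.9% of all tested probes did. Other choices lowered the count: 2 members passed as lower under median centring, 5 without FBR, and 0 on the self-self arrays without the block. No member was higher in all 4 animals, where 28.2% of all tested probes were.

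**Figure D2:**
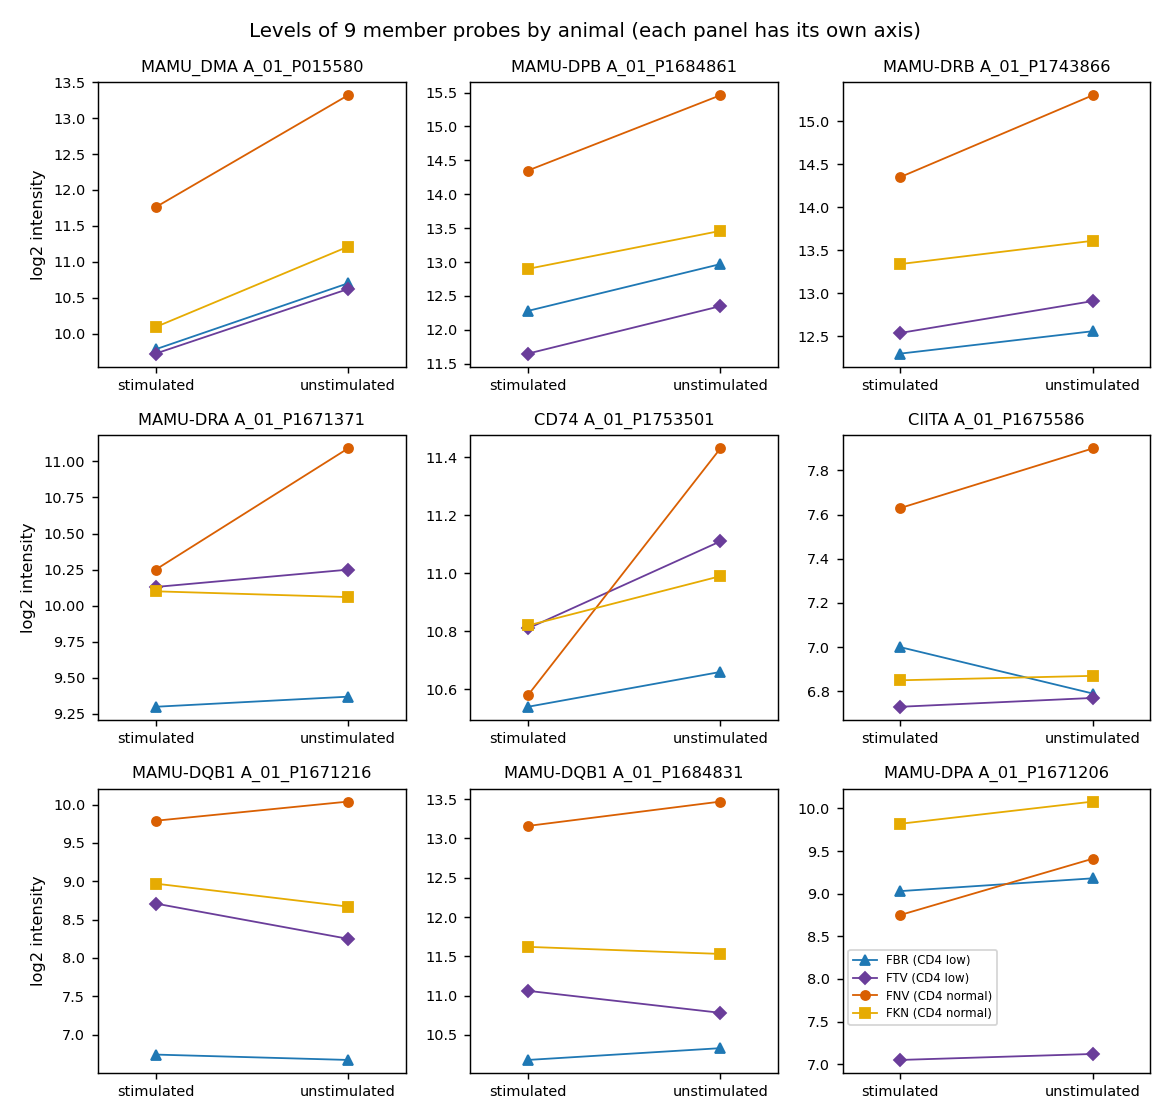
Each panel gives the level of 1 member probe as log2 intensity, stimulated on the left and unstimulated on the right, with a line per animal; each panel has an axis of its own. For MAMU_DMA, MAMU-DPB and MAMU-DRB all 4 lines are lower on the stimulated side and FNV runs above the others, and for MAMU-DQB1 A_01_P1671216 and MAMU-DPA A_01_P1671206 a single animal, FBR or FTV, lies far below the others.

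The second comparison asked whether the levels went with CD4 status. All 27 tested members had a lower mean in the CD4-low animals than in the CD4-normal animals, in unstimulated and in stimulated cells, and none passed the test. The difference of low minus normal in unstimulated level ran from -1.94 to -0.06, with a median of -1.55 over the members and -0.04 over all tested probes. In stimulated level it ran from -1.77 to -0.03, with medians of -1.18 and -0.01. Both low animals lay below both normal animals for 19 of 27 members in unstimulated level and for 19 of 27 in stimulated level, where 19.1% and 18.1% of all tested probes did.

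The test rested on 2 animals against 2. Over all probes limma called 0 of 27493 probes in unstimulated level, 0 in stimulated level and 0 in response, while 445 (1.62%), 530 (1.93%) and 594 (2.16%) had an unadjusted p under 0.05. Of the 27 members, 8, 9 and 0 had one. Without FKN, which leaves FNV as the only normal animal, 5120 probes passed in stimulated level. The smallest adjusted p among the members was 0.822 for unstimulated level, and a permutation of 2 against 2 animals cannot go below 0.333. Differences in response were smaller than those in level. The difference of low minus normal ran from -0.07 to 0.47, with a median of 0.27 over the members and 0.02 over all tested probes, and both low animals lay above both normal animals for 8 of 27 members, where 15.4% of all tested probes did, and below both for 0, where 11.6% did. In level, no member had both low animals above both normal animals, where 15.3% of all tested probes did unstimulated and 16.1% stimulated.

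The differences were largest on 2 probes of MAMU-DQB1 and 2 of MAMU-DRB5, between -1.94 and -1.84. The 5 MAMU-DPB probes lay between -1.80 and -1.61, and the 8 DR beta probes were spread between -1.91 and -0.53. MAMU-DQB1 probe A_01_P1684831 had unstimulated levels of 10.33 in FBR and 10.78 in FTV, against 13.47 in FNV and 11.53 in FKN, a difference of -1.94 ± 0.69 (limma SE, 2 against 2). MAMU-DRB5 probe A_01_P1696686 had 11.72 and 12.24 in the low animals, against 14.69 and 13.09 in the normal animals, a difference of -1.91 ± 0.59. Both low animals lay below both normal animals on these probes, and FNV lay farther above them than FKN did. CD74 differed by -0.32 ± 0.29 and MAMU-DRA by -0.77 ± 0.49, with overlap between the statuses for both.

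FNV was one of 2 normal animals and also the only animal of its scan batch. It had the highest unstimulated level of the 4 animals for 23 of 27 members, where it had the highest for 44.6% of all tested probes. Within the later scan batch, FBR and FTV can be set against FKN alone, and limma then called 0 probes in unstimulated level, stimulated level and response. The mean of the low animals was below FKN for 23 of 27 members in unstimulated level and for 25 of 27 in stimulated level, and the median difference was -0.73 and -0.79, against -0.01 and 0.00 over all tested probes. Both low animals were below FKN for 21 of 27 members unstimulated and for 23 of 27 stimulated, where 31.5% and 33.4% of all tested probes were. MAMU-DRB5 probe A_01_P1696686 differed by -1.11, MAMU-DPB probe A_01_P1684861 by -0.80 and MAMU_DMA probe A_01_P015580 by -0.55, and CD74 by -0.10. The 2 MAMU-DQA1 probes lay at 0.14 and 0.11, so their difference by CD4 status rested on FNV.

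**Figure D3:**
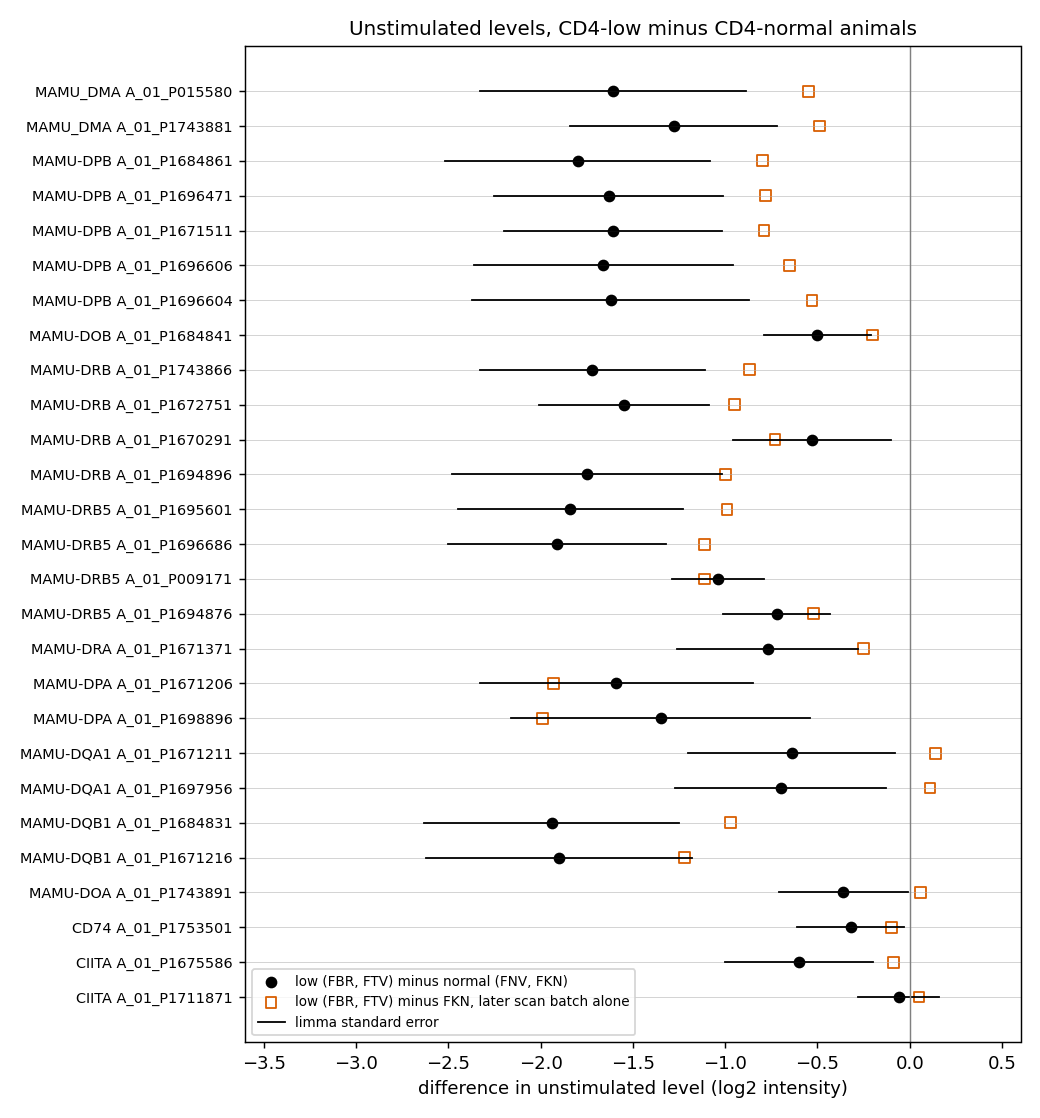
Black points give the difference in unstimulated level between CD4-low and CD4-normal animals for each of the 27 tested member probes, with limma's standard error as a line, and open squares the same difference with FKN as the only normal animal. All black points lie below 0, and 23 of the 27 squares do.

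Some probes were low in a single animal in which another probe of the same gene was not. MAMU-DQB1 probe A_01_P1671216 had an unstimulated level of 6.67 in FBR, against 8.25 to 10.04 in the other animals, whereas A_01_P1684831 had 10.33 in FBR, against 10.78 to 13.47 in the others. A_01_P1694896, the probe described as DQA, had 6.31 in FBR and was well above background in 0 of 8 channels of that animal and in 24 of 24 channels of the others. MAMU-DPA probes A_01_P1671206 and A_01_P1698896 had 7.12 and 6.64 in FTV, against at least 9.18 and 8.34 in the other animals. A further DPA probe of the array, A_01_P1694906, which carries an accession as its name, had 10.86 in FTV, above the 10.02 of FBR. Another 3 probes with accessions as names, which align with both MAMU-DPA probes, were lowest in FTV, with 7.15 on A_01_P1694901, 7.56 on A_01_P1698451 and 7.90 on A_01_P1698916. For these probes the level in an animal cannot be read as the amount of the transcript, because whether the allele matches the probe was not tested. The response, a ratio within an animal, does not compare animals in this way, but it loses range where a probe is near background.

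Another 39 probes of the array were described as class II but named by an accession or a LOC number, and 35 of them were tested. Their median response was -0.31, close to the -0.29 of the members, and 2 fell and 0 rose, where 20.4% of all tested probes fell and 19.9% rose. The larger fall was that of LOC100429857, described as like the beta chain of DM, with -1.10 in FBR, -1.18 in FTV, -1.69 in FNV and -1.44 in FKN, a mean of -1.35 (limma adjusted p = 0.00107). Both MAMU_DMA probes and this one thus fell in all 4 animals. The other was a probe with a transcript identifier as its name, A_01_P1684826, at -0.39 (limma adjusted p = 0.0413). In unstimulated level, both low animals lay below both normal animals for 28 of these 35 probes, where 19.1% of all tested probes did. Several of these probes lay on overlapping positions between chr4:32155105 and chr4:32155206, so they are not independent of each other.

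The cells were selected as T cells, so the markers of other cells that carry class II were examined beside these results. The 8 T cell markers had a mean unstimulated level of 11.41 in FBR, 11.39 in FTV, 10.30 in FNV and 11.50 in FKN, and FNV was the highest for 0 of the 8. The 9 tested monocyte markers had 8.71, 9.25, 11.72 and 9.43 in the same order, and the 6 tested B cell markers 8.13, 7.79, 9.68 and 8.30. FNV was the highest for 9 of 9 monocyte, 6 of 6 B cell, 4 of 5 dendritic cell and 1 of 4 NK cell markers. It was the highest for 23 of 27 class II members and for 44.6% of all tested probes. In T cell markers FNV was the lowest. Both low animals lay below both normal animals for 5 of 9 monocyte, 5 of 6 B cell and 3 of 5 dendritic cell markers. They did so for 1 of 4 NK cell and 0 of 8 T cell markers, and for 19.1% of all tested probes. The 5 dendritic cell markers averaged 6.82, 7.03, 8.23 and 7.15, and the 4 NK cell markers 8.09, 10.25, 8.37 and 8.22, with FTV the highest.

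The markers moved with stimulation too. The counts in these and the following lists stand beside 20.4% of all tested probes that fell and 19.9% that rose. Of the 9 monocyte markers 5 fell and 0 rose, with a median of -0.87, and by animal the median was -0.46 in FBR, -0.80 in FTV, -1.42 in FNV and -0.80 in FKN. VCAN, a matrix proteoglycan, fell by 1.14 on the log2 scale, S100A8, a calcium-binding protein, by 0.97 and TYROBP, a signalling adaptor, by 0.94. CSF1R, the receptor of a monocyte growth factor, had a mean of -0.94 (limma adjusted p = 0.0716). LYZ, which encodes lysozyme, was singled out after its values were seen and differed most by CD4 status among the monocyte markers (-4.06). Its unstimulated level was 10.46 in FBR, 10.54 in FTV, 16.48 in FNV and 12.63 in FKN. Both low animals were below both normal animals for 5 of the 9 markers, and not for CD14, S100A8, S100A9 and TYROBP. S100A9 had 10.32 in FBR, 12.29 in FTV, 12.87 in FNV and 10.27 in FKN. Of the B cell markers 2 fell, CD79B of the B cell receptor with a mean of -2.60 and the surface protein MS4A1 with -1.15, and FCER2, the low-affinity IgE receptor, rose by 0.36. VPREB3 was at -0.18 (adjusted p = 0.199). CD14, which defines monocytes, was well above background in 16 of 16 stimulated and 16 of 16 unstimulated channels. Another 6 of 12 B cell, 3 of 12 monocyte and 4 of 9 dendritic cell markers were not tested, most for want of a probe of that name. The part of such cells in the class II levels and responses was not tested.

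**Figure D4:**
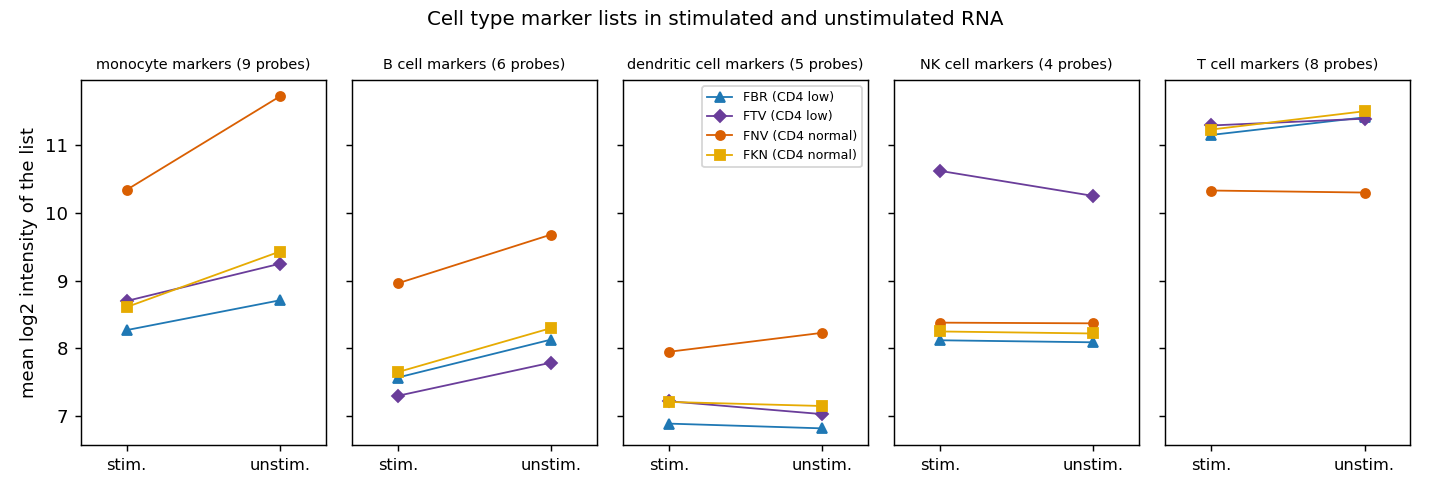
Each panel gives the mean log2 intensity of a list of cell type markers per animal, stimulated on the left and unstimulated on the right. FNV lies above the other animals for monocyte, B cell and dendritic cell markers and below them for T cell markers, and FTV lies above the others for NK cell markers.

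Dendritic cell markers stayed closer to 0, with a median of -0.09. LAMP3, a lysosomal protein of mature dendritic cells, rose by 0.42, and FCER1A (0.22), CD1C (-0.14) and XCR1 (-0.10) did not pass. Among the T cell markers 3 rose and 4 fell. CD3D, a chain of the CD3 complex, rose by 0.89 and CD3G by 0.51, whereas the receptor CD5 fell by 1.00 and the kinase LCK by 0.66. None of the 4 NK cell markers passed.

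Genes that work with class II moved in both directions. Of 7 tested genes of the class II pathway 3 fell and 1 rose. CTSD and CTSH, endosomal proteases, had means of -1.66 and -1.20, and the third, LGMN, a further protease named after its value was seen, was at -0.54. CTSD gave -1.29 in FBR, -1.43 in FTV, -2.32 in FNV and -1.62 in FKN (limma adjusted p = 0.00208), and CTSH -1.01, -1.21, -1.33 and -1.24 (0.000624). CD80, a costimulatory ligand, rose by 1.35. CD86, its relative, had 0.72 in FBR, 1.96 in FTV, -0.44 in FNV and 0.45 in FKN and did not pass (0.202).

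Inducers and regulators of CIITA changed while CIITA, with signal near background, did not pass. Stimulated levels of its probe A_01_P1675586 were 6.73 to 7.63, well above background in 14 of 16 channels. The MAMU-DOA probe that was well above background in no channel read 6.41 to 6.47. This limits what the ratios of CIITA can show. IFNG, the gene of interferon gamma, had stimulated levels of 13.77 in FBR, 14.81 in FTV, 13.85 in FNV and 13.42 in FKN, against unstimulated levels of 7.94, 9.62, 8.11 and 8.91. The conditions did not overlap, and the mean log2 response of IFNG was 5.51 ± 0.70 in 4 animals (limma adjusted p = 0.000527), a rise. Of the 11 tested genes of the interferon gamma axis 5 rose and 3 fell. SOCS1, an inhibitor of the pathway, rose by 1.72, the kinase JAK2 by 1.38 and IRF1, a transcription factor that acts at a CIITA promoter, by 0.90. The 3 that fell, named after their values were seen, were IFNGR2 by 0.64, USF1 by 0.58 and PIAS1 by 0.25.

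Of the 12 tested regulators of CIITA and of class II promoters 6 rose and 3 fell. IRF8 rose by 2.71, PRDM1, a repressor of CIITA in plasma cells, by 2.49 and IRF4 by 2.06, and each was higher in 4 of 4 animals. The complex that binds the class II promoters is built of RFX and NF-Y subunits. RFXAP rose by 0.45, NFYA by 0.75 and NFYB by 0.62, whereas RFXANK fell by 0.37, and the coactivators EP300 and CREBBP each fell by 0.38. RFX5 (0.02), NFYC (0.06) and CREB1 (-0.01) did not pass.

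Most class I genes did not pass. Of 19 tested genes of class I and peptide loading 2 rose, 1 fell and 16 did not pass, where 40.3% of all tested probes passed. The median was 0.14, and 0.29 without FNV. By animal it was 0.22 in FBR, 0.28 in FTV, -0.16 in FNV and 0.36 in FKN. TAP1, a peptide transporter, rose by 1.00 and PSMB9, an immunoproteasome subunit, by 0.75, and TAPBP, a loading chaperone named after its value was seen, fell by 0.20. B2M, the light chain of class I, had a mean of 0.39 (limma adjusted p = 0.0918), PSME2 of 0.45 (0.0522) and ERAP2 of -0.40 (0.138).

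The named features outside the members whose 8 levels, 2 per animal, were most like those of CD74 were LILRAC (Pearson r = 0.969), ALOX5 (0.965), CTBS (0.957), DNAJC13 (0.949), ZC3H6 (0.946) and LILRAD (0.943). The 8 levels share animals and arrays and these features were picked for the highest r, so r is a description. It does not measure the size of a change: the responses of ALOX5 lay between -0.11 and 0.00. Among the members, MAMU-DRA (0.81) and MAMU_DMA probe A_01_P1743881 (0.74) were most like CD74, and MAMU-DPA probe A_01_P1671206 was at 0.00.

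In the authors' deposited table of log2 ratios, MAMU_DMA stood at -1.11 and -0.98, all MAMU-DPB probes at -0.72, CD74 at -0.29 and MAMU-DRA at -0.19. The authors' deposited table gave -0.95 for MAMU-DOB, against -0.30 here. It joins 4 of the MAMU-DPB probes, 2 MAMU-DQA1, 2 MAMU-DQB1, 3 MAMU-DRB and 4 MAMU-DRB5 probes under a shared identifier per gene. It thus does not show how the joined probes differ. MAMU-DRB probe A_01_P1694896 stood apart at 0.02, against -0.39 for the 3 joined, and MAMU-DPB probe A_01_P1696604 apart at -0.72.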

How the data were processed

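RNA of 4 animals was measured on 16 two-colour arrays. The authors deposited scanner output: linear spot and local background intensity without normalisation, flags (score) for outliers and for signal well above background, and the scanner software's log10 ratio of red over green, all per the file headers, which name Agilent Feature Extraction 10.7.3.1. The authors also deposited log2 ratios per animal, made in a way the sources used here do not give; the submitters' processing notes name limma and Agilent Feature Extraction without a role. Against the ratios computed here its columns had slopes of 1.21 to 1.28 and r across probes of 0.88 to 0.92, which puts stimulated RNA on top, while its centring (medians of 0.06, 0.00, 0.00 and -0.01 for FNV, FKN, FBR and FTV) and background method stay unknown.

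In R 4.3.3 with limma 3.58.1 and data.table (version 1.17.8), intensities were corrected by normexp with an offset of 50 and normalised by loess within arrays, control and outlier spots at weight 0, and outlier spots (at most 51 per array) were left out. Spots of a probe were averaged. The dye-swapped arrays of an animal were averaged, so n = 4. Levels used Aquantile normalisation. A probe entered the tests if at least 2 animals had it well above background, in either condition, on each of their ratio arrays. limma tested responses against 0, and low minus normal CD4 status on responses and levels, with Benjamini-Hochberg adjustment over 27493 probes. Folds are ratios of means on the log2 scale. The test was tested on simulated data.

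Members, all 9 lists (112 genes, 81 tested, on the brightest tested probe) and alternatives were chosen with earlier results of these data known. All member probes are named; from other lists at most 4 genes with the largest mean response, and set regulators. Read literally, the rule matches no name spelled Mamu-D, so letter case and the type of separator were ignored. The 2 annotation editions differ in 8125 of 43803 spots (18.5%), and the newer was used. By gene name the older gives 28 members, 26 of them also members by gene name in the newer. That overlap leaves out the 2 CIITA probes, which are members by description only. On 1 FNV ratio array the title and a characteristic disagree on the channel; the title and the stated dye flip were followed. The same animal gives both conditions, so responses are paired by animal. Figures were drawn with Python 3.11.15 and matplotlib 3.10.9. Probe sequences and rheMac2 positions are those of the array files.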

Additional observations from a re-analysis of the deposited data

Results flagged for a closer look

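With 4 animals, a value far from the other 3 relative to the range is found by chance in about 1 in 20 groups. Over all tested probes, 6.63% of responses, 15.0% of stimulated levels and 15.1% of unstimulated levels held such a value, and among the 27 tested members 8, 5 and 4 did.

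In response, the distant animal was FNV in all 8 cases, each time the lowest. MAMU-DRB stood at -0.99 on A_01_P1743866, at -0.76 on A_01_P1670291 and at -0.90 on A_01_P1672751. MAMU-DRB5 stood at -0.99 on A_01_P1695601, at -0.90 on A_01_P1696686 and at -0.93 on A_01_P009171. MAMU-DQA1 probe A_01_P1671211 was at -0.66 and MAMU_DMA probe A_01_P1743881 at -1.50.

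In level, FNV was the highest animal in 8 of the 9 cases. MAMU-DQA1 probe A_01_P1697956 had 10.15 stimulated and 10.62 unstimulated, and A_01_P1671211 had 10.35 and 10.95. MAMU-DOA probe A_01_P1743891 had 7.98 and 7.71, although its response in FNV on the ratio arrays was -0.10. CIITA had an unstimulated level of 7.90 on A_01_P1675586 and a stimulated level of 7.11 on A_01_P1711871, close to background. The exception was MAMU-DRA, whose stimulated level of 9.30 in FBR was the lowest of the 4 animals. FNV was also the highest unstimulated animal in every monocyte and B cell marker tested, where it was for 44.6% of all tested probes. Its arrays were a scan batch of their own. The part of such cells or of the batch was not tested.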

How the results depend on the processing

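In the main fit 11082 probes passed in either direction and 8 members passed as lower, and the counts moved with several choices. Below, probe counts are for either direction and member counts for lower unless stated. Median centring gave 4851 probes and 2 members, 1 probe per gene name 3 members, and the scan batch as a term 17 members. Without each animal in turn, 5796 to 14074 probes, 5 to 12 members lower and 0 to 1 higher passed. On the self-self arrays, 8176 probes and 11 members passed with the animal as a replicate block, and 2161 probes and 0 members without the block, where the spread between animals enters the error. CD4 status gave 0 probes under the alternatives, except without single animals, where unstimulated level gave 0 to 2 and stimulated level 0 to 5120, the last without FKN. Signs changed in members with small means: on the scanner software's ratios A_01_P1694896 (0.04) and CIITA A_01_P1675586 (0.01); on the self-self arrays MAMU-DOA A_01_P1743891 (0.12); in the authors' deposited table A_01_P1694896 (0.02); and on leaving out each animal in turn, where the means ran from -0.16 to 0.08 and -0.22 to 0.04 (MAMU-DQA1 A_01_P1697956 and A_01_P1671211), -0.10 to 0.15 (A_01_P1694896), -0.10 to 0.05 and 0.00 to 0.05 (CIITA A_01_P1675586 and A_01_P1711871), -0.07 to 0.01 (MAMU-DOA) and -0.29 to 0.01 (MAMU-DRA). MAMU-DQB1 A_01_P1684831, with a mean of 0.00, ran from -0.11 to 0.10. The causes were not tested. MAMU_DMA and MAMU-DPB means kept their sign under every alternative, between -1.16 and -0.52. Signal near background limits what the ratios of CIITA, MAMU-DOA and MAMU-DOB can show.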
